A study of Mus musculus with 2 samples.

Results

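Late S100a8-high cells were chosen from the raw counts of single cells from mouse ankle synovium, the lining tissue of the joint. A cell was a member where it held at least 100 unique molecular identifiers (UMIs, 1 per captured mRNA molecule) of S100a8 and fewer than 20 UMIs of the proteases and peroxidase Elane, Mpo and Prtn3 summed. Cells had to pass 3 filters: no fewer than 500 UMIs, no fewer than 200 genes, and a mitochondrial share of UMIs of up to 10%. This left 74 members among 2847 cells, of which 70 lay among the 1210 cells of the day 7 library and 4 among the 1637 cells of the steady-state library. The working name of the set was late S100a8-high immature neutrophils. The markers examined below bear that name out in most but not all members, so the cells are called late S100a8-high cells.

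There were 2 groups with 1 library each. The day 7 group was taken 7 days after 200 µL of clodronate-laden liposomes, an agent that kills phagocytes, had been given behind the eye. The steady-state group had no treatment. Every animal in both groups was a B6 bone marrow chimera, a CD45.2 host that received CD45.1 donor marrow while its ankle was shielded from the irradiation, so that host cells of the joint could persist. Cells were sorted as live, CD45+ and CD11b+, and as lacking Ly6G, SiglecF, CD64, MHCII, Ly6C and CD177 at the surface. Of these, Ly6G and CD177 are antigens of maturing neutrophils. The number of animals pooled into a library was not given in the sources used here. RNA and antibody-derived tags were read from the same cells (CITE-seq). With 1 library a group there are no replicates: cells of 1 library are not independent samples, no test was made, and all intervals cover counting error only.

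Neutrophils mature in the bone marrow through ordered waves of granule synthesis. Promyelocytes make the azurophil granule proteins (elastase, myeloperoxidase, proteinase 3, cathepsin G). Myelocytes, the last stage to divide, and metamyelocytes make the specific granule proteins (lactoferrin, cathelicidin, lipocalin 2). Band and segmented cells make the gelatinase granule proteins, such as the gelatinase Mmp9, and gain Ly6G and chemoattractant receptors. S100a8 and S100a9 form calprotectin, a calcium-binding and zinc-sequestering complex that fills the neutrophil cytosol. The transcription factor C/EBP epsilon, encoded by Cebpe, is required for specific granule genes.

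Surface protein and origin were read from DNA barcodes carried by antibodies. The 3 barcodes on which those readings rest are shown 5′ to 3′ as the deposited feature lists give them, with the whole barcode in capitals. The sort antigen Ly6G and the donor and host forms of CD45 had these barcodes.
Ly6G: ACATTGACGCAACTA
CD45.1: CCTATGGACTTGGAC
CD45.2: CACCGTCATTCAACC

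Camp, Ngp and Ltf are specific granule genes, and all 3 lie on chromosome 9 (RefSeq, GRCm38.p6). Their promoters, from 250 bases before to 50 after the start of the gene, are shown 5′ to 3′ on the strand of the gene because these genes were high together in the members. Capitals mark matches to the C/EBP-type motif TNNGCAA or its reverse complement TTGCNNA, searched on both strands.
Camp (minus strand, chr9:109849407-109849706): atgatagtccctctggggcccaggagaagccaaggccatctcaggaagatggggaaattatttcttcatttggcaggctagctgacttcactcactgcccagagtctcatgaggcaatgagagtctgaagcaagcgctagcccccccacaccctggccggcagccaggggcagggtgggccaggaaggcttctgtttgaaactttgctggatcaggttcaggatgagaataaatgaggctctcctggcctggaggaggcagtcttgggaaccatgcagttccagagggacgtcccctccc
Ltf (plus strand, chr9:111019042-111019341): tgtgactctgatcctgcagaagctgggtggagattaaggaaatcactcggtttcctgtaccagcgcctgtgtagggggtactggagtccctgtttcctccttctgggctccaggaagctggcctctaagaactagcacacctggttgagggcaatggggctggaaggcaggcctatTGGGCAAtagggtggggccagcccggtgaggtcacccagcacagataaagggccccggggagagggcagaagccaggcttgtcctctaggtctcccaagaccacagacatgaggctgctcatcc
Ngp (plus strand, chr9:110419558-110419857): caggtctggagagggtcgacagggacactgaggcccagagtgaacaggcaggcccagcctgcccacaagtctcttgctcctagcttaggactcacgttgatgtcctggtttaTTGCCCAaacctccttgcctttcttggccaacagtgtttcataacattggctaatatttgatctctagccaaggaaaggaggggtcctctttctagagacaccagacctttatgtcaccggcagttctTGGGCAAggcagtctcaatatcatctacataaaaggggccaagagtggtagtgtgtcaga
Ltf had 1 match, 74 bases before its start, and Ngp had 2, 138 and 10 bases before its start. These letters were not in the Camp window. Over all 32851 mouse promoters of that length in the RefSeq table, which cover 27025 genes, 12179 (37.1%) held the motif. In the granule lists 1 promoter per gene was searched. The motif was in 6 of the 8 promoters matched for the 9 specific granule genes. It was in 1 of the 7 matched for the 8 azurophil granule genes and 2 of the 4 matched for the 5 gelatinase granule genes. A match is a description of the letters and not a site.

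The members made up 5.79% of day 7 cells (70 of 1210; exact Clopper-Pearson 95% interval 4.54 to 7.25%) and 0.244% of steady-state cells (4 of 1637; 0.0666 to 0.624%). Both shares are of sorted cells, and fewer or more cells of other types passing the gate would move them. The early protease-high cells, with at least 20 UMIs of Elane, Mpo and Prtn3 summed, were 83 of the day 7 cells (6.86%) and 2 of the steady-state cells. Of the 83, 58 also held at least 100 S100a8 UMIs and 25 did not. The remaining 1057 day 7 cells are called the other day 7 cells. Among these, 127 C1q-high cells (at least 20 UMIs of the complement genes C1qa, C1qb and C1qc summed), macrophages that should lack granule transcripts, served to show the background.

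**Figure D1:**
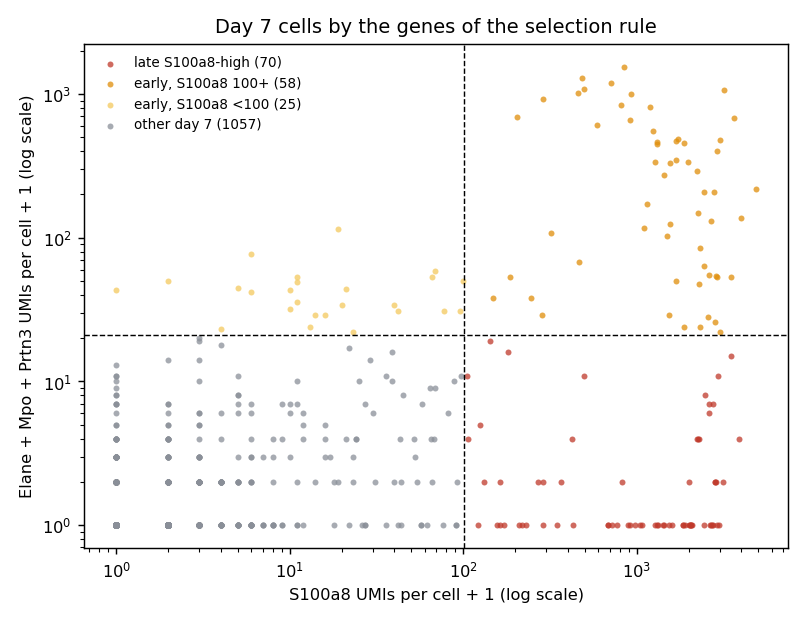
Day 7 cells by S100a8 UMIs (x axis, UMIs per cell plus 1, log scale) and by the sum of Elane, Mpo and Prtn3 UMIs (y axis, UMIs per cell plus 1, log scale), 1 point per cell. Dashed lines mark the limits of the rule: the 70 late S100a8-high cells lie at the lower right, and 42 of them had 0 protease UMIs.

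The members spanned a wide range of the genes that chose them, which are given as a description. S100a8 stood at 104, 1371.5 and 3876 UMIs in the lowest, median and highest member. The lowest 3 members had 104, 105 and 120 S100a8 UMIs, and the 3 highest cells that missed the S100a8 limit alone had 96, 91 and 90. At the protease limit the highest 3 members had 18, 15 and 14 UMIs, against 21, 23 and 23 in the lowest 3 excluded cells with enough S100a8. A further 19 day 7 cells with few protease UMIs had 50 to 99 S100a8 UMIs, so the S100a8 limit cut through a sparse stretch and not a gap. The limits are raw counts. Shallow cells met the S100a8 limit less readily and stayed under the protease limit more readily. The member with 18 protease UMIs held only 1790 UMIs in all. Deep cells reached the protease limit, and so the early class, more readily. With both limits set as shares of the UMIs of a cell, 85 day 7 cells were members. How far the limits set the depths of the classes was not tested.

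Depth differed between the classes and bears on every share of cells with a UMI. The median was 10671.5 UMIs and 2230.5 genes in late S100a8-high cells, against 21426 UMIs and 3845 genes in early protease-high cells and 7927 UMIs and 2558 genes in the other day 7 cells. With each cell thinned to 2000 UMIs, the median was 714 genes in 62 late cells, 840 in 73 early cells and 1047 in 893 other cells. Late cells therefore held UMIs of fewer genes at equal depth. S100a8 and S100a9 took a median of 28.7% of their UMIs, which left fewer UMIs for other genes. How much of the lower gene count this made up was not tested. Mitochondrial UMIs had medians of 0.633% in late cells, 1.77% in early cells and 2.16% in other cells, and ribosomal protein UMIs medians of 6.67%, 19.1% and 17.5% in the same order of classes. Of 10 doublets called by Scrublet at day 7, 4 were members and 2 were early cells. No cell barcode was shared by the libraries.

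S100a8 and S100a9 took a large share of the RNA of most members. Together they took 1.56%, 28.7% and 41.9% of UMIs in the lowest, median and highest late cell, against medians of 12.9% in early cells and 0.0114% in the other day 7 cells. Summed over cells, S100a8 stood at 133267 CPM (counts of a gene per 1000000 UMIs) in late cells, 58149 CPM in early cells and 357 CPM in the other cells. S100a9, which the rule did not use, stood at 135679, 59795 and 283 CPM. The members carried 49.3% of all S100a8 UMIs of the day 7 library and the early cells 49.2%, as a description, since the rule used S100a8. In the C1q-high cells S100a8 stood at 29.8 CPM, with a UMI in 6.30% of cells after thinning, against all late cells.

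Since a large share of UMIs in 2 genes lowers the CPM of every other gene, the counts over all genes are also given with S100a8 and S100a9 left out of the totals, and so are the list counts that this changed. A gene was compared where it reached 20 CPM in either class and called where the ratio of summed CPM passed 2-fold. Intervals are 95% conditional exact Poisson intervals. Of 5492 genes compared between late and early cells, 306 were more than 2-fold higher in late cells (5.57%) and 982 more than 2-fold lower (17.9%), with a median log2 ratio of -0.30 over all genes. Leaving S100a8 and S100a9 out of the totals gave 533 higher and 672 lower and moved that median to -0.01, so that higher genes were 44.2% of the calls and not 23.8%. Against the other day 7 cells, 580 of 6219 genes were higher (9.33%) and 2377 lower (38.2%), with a median of -0.69. With S100a8 and S100a9 left out, 960 were higher and 1466 lower, the median was -0.20 and higher genes were 39.6% of the calls and not 19.6%.

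Azurophil granule transcripts, the first wave, were low in late cells. Elane, Mpo and Prtn3 were limited by the rule and stood at 65.7, 11.8 and 98.5 CPM in late cells, against 6594, 2163 and 4196 CPM in early cells. Of the 4 other azurophil genes compared, 4 were more than 2-fold lower in late than in early cells, with a median log2 ratio of -2.15. Ctsg, cathepsin G, had 3 UMIs in 3 of 70 late cells, against 1032 UMIs in 63 of 83 early cells (3.94 against 592 CPM; log2 ratio -7.23, -9.51 to -5.68). Prss57, a neutrophil serine protease, stood at 21.0 CPM in late cells and 131 CPM in early cells (log2 ratio -2.64). The others were Ctsc, which activates the granule proteases, and Srgn, the serglycin proteoglycan that packs them, with log2 ratios of -1.66 and -1.45. Prss57 remained 35.6-fold higher in late cells than in the other day 7 cells, where it stood at 0.590 CPM.

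Specific granule transcripts, the second wave, were at their highest in late cells. Of 9 genes compared, 7 were more than 2-fold higher in late than in early cells and 0 lower, with a median log2 ratio of 1.91. The same split of 7 and 0 was found with S100a8 and S100a9 left out of the totals. Ltf, lactoferrin, stood at 6911 CPM in late cells and 388 CPM in early cells (17.8-fold; log2 ratio 4.15, 4.04 to 4.27), with a UMI in 59 of 70 late and 34 of 83 early cells. Its range was 0 to 243 UMIs in late cells with a median of 73.5, against 0 to 114 in early cells with a median of 0. Lcn2, lipocalin 2, which binds bacterial siderophores, was 4.07-fold higher at 9952 CPM against 2443 CPM. Ngp, neutrophilic granule protein, stood at 32511 CPM in late cells and 12126 CPM in early cells (log2 ratio 1.42, 1.40 to 1.45).

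Camp, the cathelicidin antimicrobial peptide, was nearly as high in early cells: 56848 CPM in late cells and 39690 CPM in early cells (log2 ratio 0.52, 0.50 to 0.54), within 2-fold. Hp, haptoglobin, was also within 2-fold, at 856 and 737 CPM. Mmp8, the neutrophil collagenase, stood at 376 CPM in late cells and 10.9 CPM in early cells (34.4-fold; log2 ratio 5.11, 4.44 to 5.86). Chil3, a chitinase-like lectin, and Cd177, a surface glycoprotein of neutrophils, were 3.01-fold and 3.75-fold higher. Among early cells, the 58 with at least 100 S100a8 UMIs held nearly all of this RNA: Camp stood at 51833 CPM in them and at 1264 CPM in the other 25. Against the other day 7 cells 8 of the 9 genes were higher, with a median of 7.83, and 9 with S100a8 and S100a9 left out. Ngp was 720-fold, Ltf 666-fold and Camp 508-fold higher there.

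Low Camp and Ngp counts occurred in cells that should not make them. After thinning, a Camp UMI was found in 87.1% of the 62 late cells deep enough to be thinned and in 4.72% of the 127 C1q-high cells. Before thinning, the median depth was 10671.5 UMIs over all 70 late cells and 7978 UMIs over the C1q-high cells. Ltf and Lcn2 had a UMI in 0% of thinned C1q-high cells, against 82.3% and 90.3% of late cells. A single UMI of Camp in a cell of another class is at the level of this background.

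Gelatinase granule transcripts, the third wave, were higher in late cells, with Mmp9 in a minority of them. Of 5 genes compared, 4 were more than 2-fold higher in late than in early cells and 0 lower, with a median log2 ratio of 3.43. Mmp9, the gelatinase, had 411 UMIs in 28 of 70 late cells and 0 UMIs in 83 early cells, although the early cells held 1742678 UMIs in all and the late cells 761556. Set against a floor of 3 counts over the early cells, it was at least 313-fold higher. Mmp25, a membrane-anchored metalloproteinase, was 17.2-fold higher and Adam8, a sheddase of neutrophil granules, 10.8-fold higher. Pglyrp1, a peptidoglycan-binding bactericidal protein, stood at 2755 CPM in late cells and 1851 CPM in early cells, within 2-fold. The metal transporter Slc11a1 was higher than in early cells (log2 ratio 1.39) and lower than in the other day 7 cells (log2 ratio -2.34).

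Genes of later maturation followed the same direction. Of 15 compared, 12 were more than 2-fold higher in late than in early cells and 0 lower, with a median of 1.61. Retnlg, a resistin-like secreted protein of neutrophils, stood at 4109 CPM in late cells and 33.9 CPM in early cells (121-fold; log2 ratio 6.92, 6.55 to 7.32). Ly6g had 118 UMIs in 31 late cells, 3 UMIs in 3 early cells and 0 UMIs in the other 1057 day 7 cells, which makes it at least 438-fold higher than in those other cells by the same floor. The chemokine receptor Cxcr2 was 9.46-fold higher than in early cells and the formyl peptide receptors Fpr1 and Fpr2 28.2-fold and 14.5-fold higher. Wfdc21, a whey acidic protein family member, and Ifitm6, an interferon-induced transmembrane family member, were 2.43-fold and 6.18-fold higher. Csf3r, the G-CSF receptor, and Lyz2, lysozyme, lay within 2-fold of early cells.

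**Figure D2:**
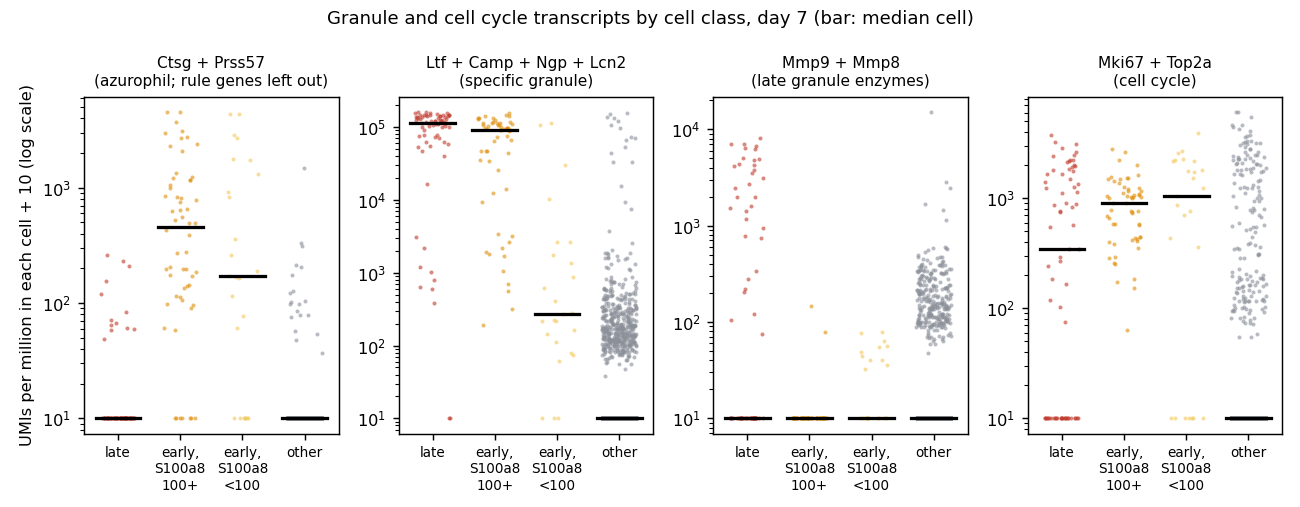
Granule and cell cycle transcripts in each day 7 cell by class, as CPM of the cell plus 10 on a log scale, 1 point per cell and a bar at the median cell. Ctsg with Prss57 was low in late cells and Mmp9 with Mmp8 was high in part of them, while Ltf, Camp, Ngp and Lcn2 summed were high in most late cells and in most early cells with at least 100 S100a8 UMIs.

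Ranked by the end of the interval that lies closest to a ratio of 1, the 12 genes furthest above early cells were Mmp9, Retnlg, Krt81, Cxcl2, Acod1, Cstdc4, Ly6g, AA467197, Mmp8, Stfa3, St3gal5 and Ltf. Several rested on few cells. Cxcl2, a neutrophil chemoattractant, had 230 UMIs in 13 late cells and 7 in 2 early cells, and Acod1, which makes itaconate, 85 UMIs in 10 late cells and 1 in 1 early cell. Cstdc4 had 101 UMIs in 4 late cells and Stfa3 69 UMIs in 5. These cysteine protease inhibitors belong to the stefin A family of near-identical copies, so reads may be split between members and their single values are uncertain. St3gal5, which makes the ganglioside GM3, was spread more widely, with a UMI in 44 late and 11 early cells (30.2-fold). The keratin gene Krt81 had 88 UMIs in 12 late cells and 0 in the rest of the day 7 library.

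The 12 genes furthest below early cells were Ctsg, Ccl2, Cst7, Gsto1, Gstm1, Mt1, Dio2, Lgals1, Gria3, Vcan, Phgdh and Fn1. Cst7, cystatin F, an inhibitor of the proteases that process azurophil enzymes, had 1 UMI in late cells and 196 in early cells. The glutathione transferase Gstm1 was 9.85-fold lower and the metallothionein Mt1 9.50-fold lower. Ccl2, a monocyte chemoattractant, had 0 UMIs in late cells and 140 in 14 early cells (at least 20.4-fold lower). Vcan, Fn1 and Lgals1, which monocytes express, were 11.3-fold, 5.62-fold and 6.64-fold lower, and they came from 14, 23 and 35 of the 83 early cells. Late cells stood at 6.57, 85.4 and 60.4 CPM of these 3 genes, against 4.53, 119 and 92.9 CPM in the 58 early cells with at least 100 S100a8 UMIs, so the large ratios rested on the other 25. Ccl2 stood at 9.82 CPM in the 58 and at 303 CPM in the 25.

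Against the other day 7 cells the 12 highest genes were Ngp, Ltf, Camp, S100a9, Olfm4, Ly6g, Krt81, Stfa2l1, Cstdc5, Stfa1, Itgb2l and Chil1. Itgb2l, an integrin subunit of neutrophils, had 198 UMIs in 44 late cells and 4 UMIs in 4 other cells. Chil1, a chitinase-like protein of specific granules, had 138 UMIs in 42 late cells and 2 in the other cells. Among the 12 lowest were Pf4, C1qb, Ccl2, C1qa, Fxyd2, C1qc, Aqp1, Lyve1, Dcn, Sparc and Dab2, which include complement and endocytic genes of tissue macrophages and extracellular matrix genes of fibroblasts. C1qb, Ccl2, Dcn, Sparc and Dab2 had 0 UMIs in the 70 late cells.

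Most transcription factors of granulopoiesis lay within 2-fold of early cells. Of 10 compared, 0 were more than 2-fold higher, 6 within 2-fold and 4 lower, with a median log2 ratio of -0.49. Over all genes compared 17.9% were lower and the median was -0.30, so the list median was near that of all genes. With S100a8 and S100a9 left out of the totals 1 was higher and 4 lower. The list median was then -0.22, against -0.01 over all genes. Cebpe stood at 264 CPM in late cells and 269 CPM in early cells (log2 ratio -0.03, -0.27 to 0.22), against 8.37 CPM in the other day 7 cells. The early value pooled 342 CPM in the 58 early cells with at least 100 S100a8 UMIs and 35.8 CPM in the other 25. Late cells thus lay below the 58 in summed CPM. S100a8 and S100a9 took a median of 28.7% of UMIs in late cells and 18.0% in the 58, which lowers the late value more. Its part in the gap was not tested. Groups of members also differed in Cebpe, as given below. Gfi1, a repressor needed for granulocyte fate, stood at 13.1 CPM in late cells and 39.0 CPM in early cells (log2 ratio -1.57, -2.69 to -0.61). Myb, a progenitor factor, was 3.76-fold lower, and Irf8 and Klf4, factors of the monocyte fate, were 3.50-fold and 2.66-fold lower. Late cells had 19.7 CPM of Irf8 and 49.9 CPM of Klf4, against 21.1 and 47.6 CPM in the 58 early cells with at least 100 S100a8 UMIs and 220 and 401 CPM in the other 25, on which both ratios rested. Ms4a3 and Fcnb, genes of granulocyte progenitors, stood at 127 and 625 CPM in late cells, against 599 and 1233 CPM in early cells and 0.708 and 9.08 CPM in the other cells. Kit, the stem cell factor receptor, was seen in 16 late and 34 early cells at 27.6 and 37.9 CPM.

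Most effector genes lay within 2-fold of early cells, and those that passed it were higher. Median log2 ratios were 0.44 for oxidase genes, 0.72 for adhesion and chemokine receptors and 0.40 for innate receptors. They were 0.29 for nuclear genes and -0.32 for glycolysis, against -0.30 over all genes compared. Of 6 NADPH oxidase genes, which make the respiratory burst, only Cybb passed 2-fold (1745 CPM in late cells and 776 CPM in early cells). Of 10 adhesion and chemokine receptor genes 3 were higher and 0 lower, namely Itgam (CD11b), Itgb2l and Ceacam1, and 5 were higher with S100a8 and S100a9 left out of the totals. Of 11 innate receptors 2 were higher and 0 lower, Trem1 and Clec4d, and 4 were higher with those totals. Of 3 nuclear genes Padi4, the enzyme that citrullinates histones, was 4.29-fold higher, while the lamin receptor gene Lbr stood at 326 and 324 CPM. Among 9 glycolysis genes 1 was higher, the glucose transporter Slc2a3 (118 CPM in late cells and 20.1 CPM in early cells).

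Protein-making genes were lower. Of 10 genes of ribosome biogenesis and translation, 7 were more than 2-fold lower in late than in early cells and 0 higher (median -1.54), and 6 were lower with S100a8 and S100a9 left out of the totals. Npm1, nucleophosmin, stood at 158 CPM in late cells and 522 CPM in early cells. Of 11 endoplasmic reticulum folding genes 10 were lower and 0 higher (median -1.69), or 7 lower with those totals. Calr, calreticulin, stood at 69.6 CPM in late cells and 306 CPM in early cells. Sdf2l1, an ER chaperone component, had the lowest ratio of that list (log2 ratio -2.88). Against the other day 7 cells 8 of the 10 and 11 of the 11 were lower, and 5 and 8 with those totals. The list medians there were -1.45 and -1.53. Over all genes compared 17.9% were lower than in early cells (median -0.30) and 38.2% lower than in the other cells (median -0.69). With those totals 672 of 5985 and 1466 of 6463 genes were lower. The lower share of ribosomal protein UMIs in late cells, given above, moved with these lists, and its part in them was not tested.

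Summed over cells, cell cycle genes were close to early cells and far above the rest, but they were unevenly spread over the members. Of 19 compared, 16 were more than 2-fold higher in late cells than in the other day 7 cells and 0 lower (median 1.71), and all 19 were higher with S100a8 and S100a9 left out. Mki67, which marks dividing cells, stood at 650 CPM in late cells, 629 CPM in early cells and 126 CPM in the other cells. Between late and early cells 5 of the 19 were lower and 0 higher (median -0.52), or 4 lower with those totals. Over all genes compared 17.9% were lower and the median was -0.30, so this count was near the share of all genes. Among the lower genes were the replication licensing genes Mcm2, Mcm3, Mcm5 and Mcm6, with log2 ratios of -1.43, -1.33, -1.61 and -1.58. A Mki67 UMI was found in 40.3% of thinned late cells and 67.1% of thinned early cells. Per cell, Mki67 and Top2a summed had a median of 337 CPM in late cells, with 26 of 70 at 0. The median was 894 CPM in early cells with at least 100 S100a8 UMIs, with 0 of 58 at 0. In the other early cells it was 1039 CPM, with 7 of 25 at 0.

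**Figure D3:**
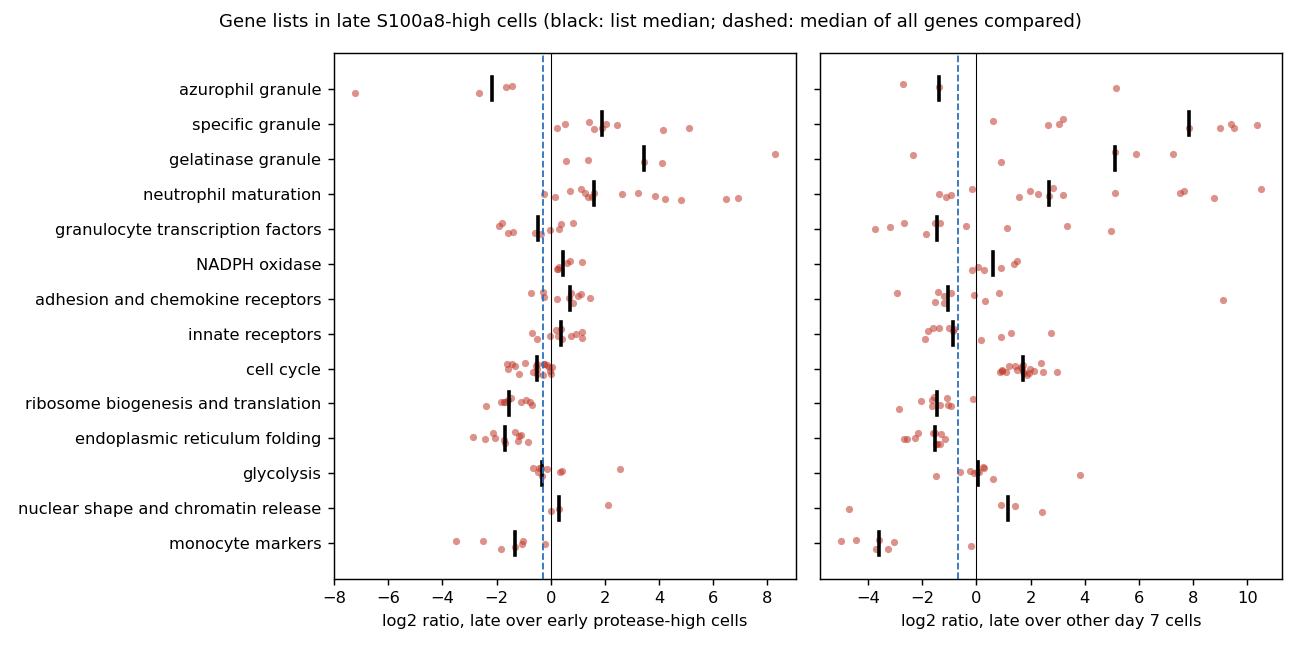
Log2 ratios of summed CPM in late S100a8-high cells over early protease-high cells (left) and over the other day 7 cells (right), 1 point per gene by list, with the genes of the rule left out. Black bars are list medians and the dashed line is the median of all genes compared, -0.30 on the left and -0.69 on the right.

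Markers of other cell types were scarce in the members. Of 10 macrophage markers, 5 were at 0 UMIs in late cells, namely C1qb, Cd163, Timd4, Vsig4 and Mertk, and their summed level was 36.8 CPM in late cells, 17.2 CPM in early cells and 1970 CPM in the other cells. Eosinophil, basophil and mast cell, fibroblast, erythroid, lymphoid and platelet markers summed to between 0 and 10.5 CPM in late cells, with 22 of their 27 genes at 0 UMIs. Monocyte markers were present, at 1301 CPM summed in late cells, 3098 CPM in early cells and 6129 CPM in the other cells. Over all genes compared 17.9% were more than 2-fold lower than in early cells. Of the 7 monocyte markers, 6 were lower and 0 higher, or 4 lower with S100a8 and S100a9 left out of the totals. For Ccr2, Csf1r and F13a1 this rested on the 25 early cells with fewer than 100 S100a8 UMIs. Ccr2 stood at 89.3 CPM in late cells, at 47.6 CPM in the 58 early cells with at least 100 S100a8 UMIs and at 626 CPM in the 25. Csf1r, the receptor of macrophage colony-stimulating factor, stood at 44.6, 20.4 and 153 CPM in the same order of cells, and F13a1, a coagulation factor subunit, at 60.4, 56.6 and 712 CPM. Ly6c2 made up most of the sum, at 919 CPM, with a UMI in 65 of 70 late cells, against 1673 CPM in the 58 early cells.

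Class II genes of antigen-presenting cells were low, at 198 CPM summed in late cells, 130 CPM in early cells and 2403 CPM in the other cells. Of 5 compared with early cells 3 were higher and 1 lower (median 1.19), or 3 and 0 with S100a8 and S100a9 left out of the totals, and with equal weight per cell the median was -0.95. H2-Ab1 had UMIs in only 3 late cells. Of 7 interferon-stimulated genes compared with the other cells, 6 were lower in late cells and 0 higher (median -2.67), or 5 lower with those totals. Over all genes compared with the other cells 38.2% were lower, with a median of -0.69. The S100 family beyond S100a8 was mixed: S100a9 and S100a6 were higher than in early cells, S100a10 and S100a1 lower, and 3 within 2-fold.

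The members were not of one kind. The following division was made after their values had been seen and is a description without a test. In 59 of 70 day 7 members Camp made up at least 1% of UMIs, and in 11 it did not. Of the 11, 7 had fewer than 100 Retnlg UMIs, and in these 7 the neutrophil label did not hold: Camp had 0 to 1 UMI, Ltf 0 to 1, and Ly6g and Mmp9 0. They had 104 to 496 S100a8 UMIs, against a limit of 100 and a median of 1371.5 over the 70 members. They also had up to 43 UMIs of Ly6c2 and a UMI of Ccr2, the monocyte chemokine receptor, in 5 of the 7. Their Ly6C antibody median was 90 counts, against 18 in the 59. The other 4 had 135 to 288 Retnlg UMIs, Mmp9 at 6 to 22, Il1b at 15 to 83 and Cxcl2 at 8 to 65, with 0 UMIs of Ltf, Mki67, Top2a and Fcnb.

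Leaving out the 11 cells moved no call count by more than 1.5 times. Late cells with Camp of at least 1% of UMIs had 292 genes more than 2-fold higher and 1320 lower than early cells, and 599 higher and 2717 lower than the other day 7 cells. Ccr2 had 37 UMIs in 3 of the 59. Il1b and Cxcl2 depended on the 4 Retnlg-rich cells: they stood at 131 and 122 CPM in the 59 cells, against 332 and 302 CPM in all 70.

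Within the 59 cells, 8 held fewer than 2000 UMIs and 51 were deeper. Of the 51, 25 had at least 3 UMIs of Mki67 and Top2a summed and fewer than 3 of Mmp9, and are called cycling cells. A further 20 had at least 3 Mmp9 UMIs and fewer than 3 of the cycle genes and are called Mmp9 cells, 2 had both and 4 neither. Their counts of Mmp9, Mki67 and Top2a follow from that division. In the 25 cycling cells Mmp9 and Mmp8 had 0 UMIs, Fcnb was found in 24, Kit in 14 and Ms4a3 in 21. In the 20 Mmp9 cells Ms4a3 and Prss57 had 0 UMIs, Kit was found in 1 and Mki67 in 1.

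Specific granule transcripts were shared by the cycling and the Mmp9 cells. Camp had 197, 1200 and 1938 UMIs in the lowest, median and highest cycling cell, against 65, 396 and 805 UMIs in the Mmp9 cells. Cycling cells were deeper, with a median of 16885 UMIs against 7226. After scaling, Camp stood at 74404 CPM in cycling cells and 43968 CPM in Mmp9 cells, while Ltf stood at 5964 and 11084 CPM and Lcn2 at 10539 and 12063 CPM. Retnlg had 0, 1 and 13 UMIs in the lowest, median and highest cycling cell and 0, 66.5 and 281 in the Mmp9 cells. Cebpe was found in 23 of 25 cycling cells and 8 of 20 Mmp9 cells, at 358 and 121 CPM. Fpr2 was found in 7 of 25 and 18 of 20.

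**Figure D4:**
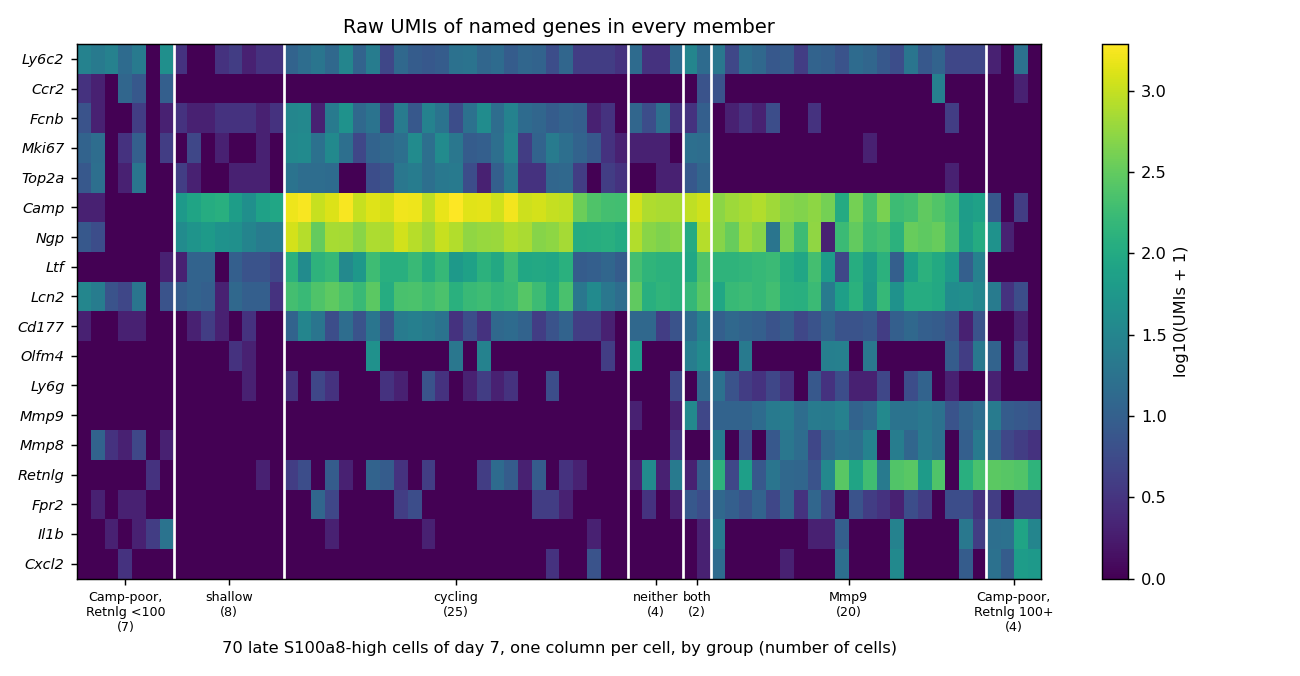
Raw UMIs of named genes in each of the 70 late S100a8-high cells of day 7, 1 column per cell and 1 row per gene, coloured by log10 of UMIs plus 1. White lines separate groups set after the values were seen: by that division Mki67 or Top2a is found in the 25 cycling cells and Mmp9 in the 20 Mmp9 cells, the 7 cells at the left have 0 to 1 Camp UMI, and Olfm4 is present in a minority of columns of several groups.

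Olfm4, a specific granule glycoprotein made by only a subset of neutrophils, was found in a minority of cells. Of the 51 deeper cells with Camp, 37 had 0 UMIs, 2 had 1 to 7 and 12 had at least 8, up to 65. It was found in 4 of 25 cycling cells and 7 of 20 Mmp9 cells, so it was present on both sides of the division. The exact intervals of these shares were 4.54 to 36.1% and 15.4 to 59.2%. They cover counting error only. With so few cells of 1 library, at median depths of 16885 and 7226 UMIs, they cannot tell whether the shares differ. Among early cells with at least 100 S100a8 UMIs, 12 of 58 had a UMI and 8 had at least 8. Of the other early cells with at least 2000 UMIs, 0 of 15 had one. The 358 UMIs of the late cells compare with 3 UMIs in 1057 other day 7 cells and 0 UMIs in the 4 steady-state members.

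Antibody counts, which the rule did not use, differed from the RNA in scale and were low for several antigens. The median was 746.5 antibody counts in a late cell, 1163 in an early cell and 517 in another day 7 cell. CD3 and NK1.1, antigens of lymphocytes, had a median of 1 count in late cells and at most 5, which gives the background. The panel of 92 antibodies held none named as an isotype control. CD43, sialophorin, took 45.6% of all antibody counts in late cells, 54.1% in early cells and 18.0% in the other cells. It had a median of 345 counts in late cells, against 674 in early cells and 84 in the other cells.

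Ly6G antibody had 0, 4 and 32 counts in the lowest, median and highest late cell, 0, 3 and 8 in early cells, and 0, 2 and 23 in the other day 7 cells. The medians lay close to the background, and the classes parted in the upper tail: at least 10 counts were found in 19 late cells, 0 early cells, 7 other cells and 0 C1q-high cells. Per 10000 antibody counts the log2 ratio was 1.84 over early cells and 0.84 over the other cells. Of the 19 late cells with at least 10 counts, 18 had a Mmp9 UMI and 3 a Mki67 UMI, against 10 and 36 of the 51 with fewer, at median depths of 8050 and 11563 UMIs. The median was 13 counts in Mmp9 cells and 4 in cycling cells. Over the 51 deeper cells with Camp, Spearman's rho between Ly6G antibody and Mmp9 RNA was 0.56 and with Ly6g RNA 0.42. These are cells of 1 library, and rho with RNA depth was -0.26. All these cells had passed a gate against surface Ly6G.

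CD88, the complement C5a receptor, was named after its values were seen. It had medians of 8 counts in late cells, 2 in early cells and 2 in the other cells, with log2 ratios per 10000 counts of 2.19 and 0.13. Within the members it had 0, 6 and 37 counts in cycling cells and 3, 20 and 47 in Mmp9 cells. Its gene, C5ar1, stood at 129 CPM in late cells, 28.1 CPM in early cells and 122 CPM in the other cells.

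Among antibodies with a median of at least 10 counts in either class, 8 passed for late against early cells. CD71, the transferrin receptor of dividing cells, was lowest: medians of 2 in late cells and 11 in early cells (log2 ratio per 10000 counts -2.71). CD102 and Ly6C followed, with log2 ratios of -1.23 and -0.83, then Mac-2 and CD43 at -0.29 and -0.25. CD61, CD11b and CD11a had log2 ratios of 0.89, 0.75 and 0.41. The background antibodies CD3 and NK1.1 stood at 0.47 and 0.61 on this scale, so CD11a did not pass background and CD11b passed it by little. The raw median of CD11a was 41 counts in late cells and 46 in early cells. CD11b, an antigen of the sort, had medians of 166 counts in late cells, 147 in early cells and 110 in the other cells. Ly6C, an antigen the gate excluded, had 2, 20 and 122 counts in the lowest, median and highest late cell, 58 in the median early cell and 27 in the median other cell, against 3 in C1q-high cells.

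**Figure D5:**
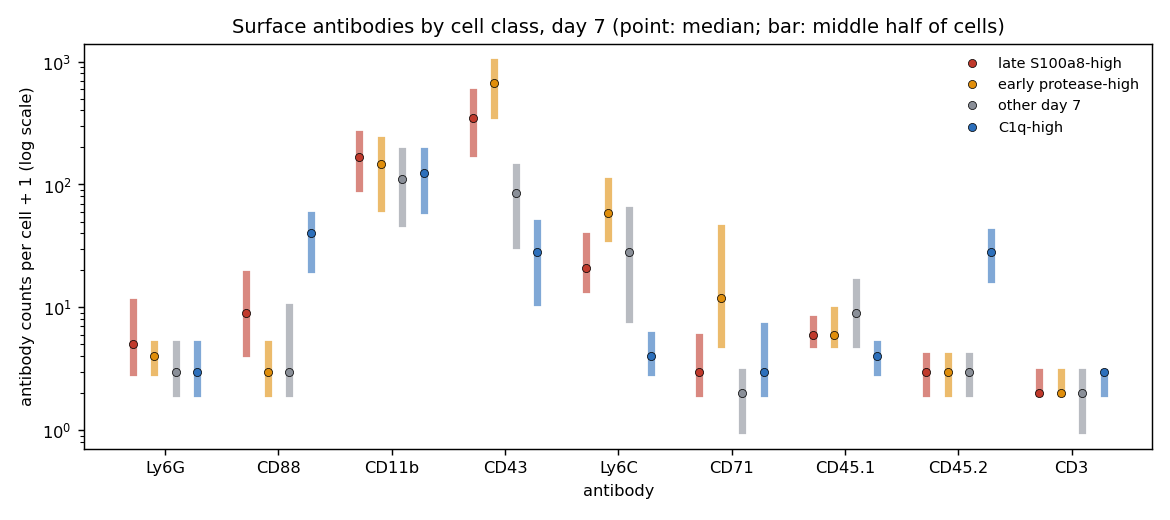
Antibody counts per cell plus 1 (y axis, log scale) for 9 antibodies in late S100a8-high, early protease-high, other and C1q-high cells of day 7, with a point at the median and a bar from the lower to the upper quartile of cells. Ly6G and CD88 are higher in late than in early cells, CD43, Ly6C and CD71 are lower, CD45.2 stands apart only in C1q-high cells, and CD3 gives the background.

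Origin was read from CD45.1 and CD45.2 antibody counts, in cells with at least 10 counts of both summed, as donor where CD45.1 plus 1 was at least 2 times CD45.2 plus 1 and as host where the reverse held. Of the 70 members, 12 were of donor and 0 of host origin, and 58 stayed unassigned. The donor share was 100% of 12 (exact Clopper-Pearson 95% interval 73.5 to 100%). Of the 12, 8 remained with doublet calls removed and 9 with the 11 cells of low Camp left out. From at least 5 counts, a limit set after the data were seen, 38 were donor and 1 host. CD45.1 exceeded CD45.2 in 58 of 70 members and was lower in 6. Early cells had 24 donor and 4 host cells (85.7% donor), the other day 7 cells 514 and 163 (75.9%), and C1q-high cells 9 and 113 (7.38%). These shares depended on the limit. From at least 20 counts 3 members were donor and 0 host. Early cells then had 6 donor and 4 host cells (60.0%), other cells 179 and 128 (58.3%), and C1q-high cells 8 and 89 (8.25%). The medians of CD45.1 and CD45.2 were 5 and 2 counts in late cells and 3 and 27 in C1q-high cells.

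The 4 steady-state members carried far more antibody counts, with a median of 6434. Of these cells 3 had Camp, at 276, 1178 and 2372 UMIs, with Mki67 at 9, 19 and 21 UMIs and Mmp9 at 0. The other had 142 S100a8 UMIs, 0 of Camp, Ngp and Ltf, 224 of Cxcl2 and 119 of Il1b, and it also held 19 UMIs of Csf1r. The Ly6G antibody had 50 counts in this cell and 0, 1 and 0 in the 3 with Camp. In all 4, Ly6g and Olfm4 RNA had 0 UMIs. By the rule above 3 were of donor origin and 1 was unassigned. These 4 cells held 8550 of the 13571 S100a8 UMIs of the steady-state library.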

How the data were processed

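Single-cell RNA and antibody tags of 2 sorted synovial libraries were analysed. The deposited matrices hold unnormalized UMI counts for genes and antibodies. The submitters' processing notes name Cell Ranger 6.1.2, the mm10 build and Seurat 4.4.0 (role not given). The matrices cover 32285 genes and 92 antibodies. After the cell filters 1210 of 1277 day 7 and 1637 of 1912 steady-state barcodes remained, with 10983657 and 17169755 RNA UMIs and medians of 8309 and 9569 per cell. Scrublet calls (scanpy 1.11.5) were not removed. Counts were summed over the cells of a class, scaled to CPM and compared as ratios with conditional exact Poisson intervals in Python 3.11.15 (scipy 1.17.1). A class at 0 was set to 3 counts. The calling was run on Poisson counts simulated from a single pooled profile, which hold no spread between cells. That run checks the arithmetic only and cannot show how calls hold for genes that rest on few cells. Genes named were, each way, the 12 whose interval stayed furthest from a ratio of 1 (without genes of the rule and ribosomal, mitochondrial or predicted genes), plus the listed granule, maturation and transcription factor genes. The members and lists were chosen with earlier results of these data known. Alternatives were other limits of the rule, scaling, thinning, equal weight per cell, CPM minima and doublet removal. Antibody barcodes came from the deposited feature lists, promoters from RefSeq. A few genes and antigens are not reported here.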

Additional observations from a re-analysis of the deposited data

How the results depend on the processing

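No paired analysis was possible because each group has 1 library. Of 75 recomputed main values, 59 kept their direction and size and 16 moved. The share of day 7 cells was 7.36% with an S100a8 minimum of 50 UMIs, since that limit admits more cells, and kept its size under the other limits tried. Genes more than 2-fold higher in late than in early cells numbered 306, and 533 with S100a8 and S100a9 left out of the totals, 518 with equal weight per cell and 691 after thinning to 2000 UMIs. With at least 100 CPM 104 were higher and 255 lower, and with no CPM minimum 605 were higher and 2128 lower, since those settings compare fewer or more genes. Against the other day 7 cells the counts were 960 higher and 1466 lower with S100a8 and S100a9 left out, 170 and 726 with at least 100 CPM, and 1131 and 3647 with no minimum. As log2 ratios of medians plus 1 in late over early cells, Ly6G antibody was 0.32 in raw counts and 1.61 per 10000 antibody counts, and CD45.2 was 0 and 0.54. Among list medians, class II genes turned from 1.19 to -0.95 with equal weight per cell, late over early. Of the single-gene ratios recomputed, 872 stayed inside the interval of the main ratio, 586 moved outside it and 3 reversed. After thinning to 2000 UMIs 153 stayed, 202 moved and 2 reversed, so the intervals do not cover the choice of processing. The reversals were late over other: Oasl2 turned to 0.12 after thinning, and Tfrc to -0.26 with equal weight per cell and -0.71 after thinning. The cause was not tested. Leaving out the 11 Camp-poor members, an alternative chosen after seeing the data, kept all 6 main values within 1.5 times. Low counts limit Ly6G and CD45 antibodies and any gene seen in few of 70 cells.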
